A study of Mus musculus with 2 samples.

Results

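The Celf and Elavl genes encode 2 related families of RNA-binding proteins, and all 10 mouse members were examined here (Celf1 to Celf6 and Elavl1 to Elavl4). They were found as every non-control probe that carries a member's name, or whose RefSeq accession now belongs to one. This gave 20 probes on 29 spots, out of 55674 probes and 36493 gene names on the array. Celf1, Celf2 and Elavl1, which are made in many tissues, are called the broad members, and the other 7, known mainly from neurons, the neuronal members. The genes were chosen by the log2 differences of these same arrays, on which Celf3 was already known to stand near the top, so the members' differences are a description and not independent evidence.

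The RNA came from neural stem and progenitor cells (NSPCs), made from mouse embryonic stem cells by way of embryoid bodies and grown as tertiary neurospheres, at passage 2 and day 18 from the embryoid bodies. One group overexpressed the microRNA miR-153, and the other is labelled as the control for overexpression. The vector, the insert of the control and the number of pooled cultures are not given in the sources used here. Each group had 1 array, so no value has a replicate check and no test was possible. A difference is the log2 level on the miR-153 array less that on the control array. The words higher and lower are used of a gene or probe for a change of 2-fold or more in that direction, a rule of size only, unless the fold is given.

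ELAVL proteins, also called Hu proteins, bind uridine-rich and AU-rich stretches of mRNA, mostly in 3′ UTRs, and thereby raise mRNA stability and translation, and they also act on splicing and on the choice of poly(A) site. ELAVL1 (HuR) is present in nearly all cells, whereas ELAVL2 (HuB), ELAVL3 (HuC) and ELAVL4 (HuD) appear as progenitors leave the cell cycle to become neurons and are used as early neuron markers. CELF proteins bind GU-rich RNA, where they regulate alternative splicing, mRNA decay and translation, and CELF1 is known for its opposition to muscleblind proteins in muscle.

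The overexpressed microRNA and the only member probe that holds the match to its 3p seed are shown first, as RefSeq (GRCm38.p6) and the array design give them. Capitals mark the seed (bases 2 to 8) in the microRNA, and in the probe the letters CTATGCA that pair with it.
mmu-miR-153-3p: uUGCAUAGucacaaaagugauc
Elavl2 probe at transcript position 3538, bases 1 to 30: caggcaatgtgCTATGCAtaacatagttgt
The microRNA lies at chr12:117250860-117250881 on the plus strand of GRCm38.p6. The probe, of the minus strand, lies at chr4:90917989-90918048 on mm9, the build of the array files. The letters CTATGCA occurred in 1 of the 20 member probes and in 0.336% of all 55681 non-control probe sequences. The probe that holds them had 4.02 times the control array's level on the miR-153 array. The match to the seed of miR-153-5p, AAAATGA, also occurred in 1 member probe, that of Celf5 at position 1657, and in 1.12% of all. Only the probes were searched, and a match in a probe is not evidence of a site that the microRNA uses.

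Across both arrays, 7 of 7 neuronal members were higher with miR-153, and 0 of 3 broad members were higher or lower. Among all 20473 genes measured (well above background on both arrays), 9.21% were higher and 11.1% lower. Since the genes were chosen with this contrast in view, nothing is read from the members' count against that share. The neuronal members ranged from 1.48 (Celf6) to 4.34 (Celf3), with a median of 2.01, whereas the broad members ranged from -0.61 (Elavl1) to 0.34 (Celf2), with a median of -0.50. The median of all genes was -0.11. The lowest neuronal member therefore stood above the highest broad one, and the gap between the medians was 2.50 on the log2 scale. The broad median is the value of Celf1, which rests on 1 probe. Another 2 probes, annotated to Celf1 by description only and so outside the rule, were brighter and gave -0.16 and 0.25. The broad median and the gap therefore depend on leaving them out. Over probes well above background on both arrays, the medians were 1.99 for the 13 neuronal and 0.19 for the 6 broad ones.

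**Figure D1:**
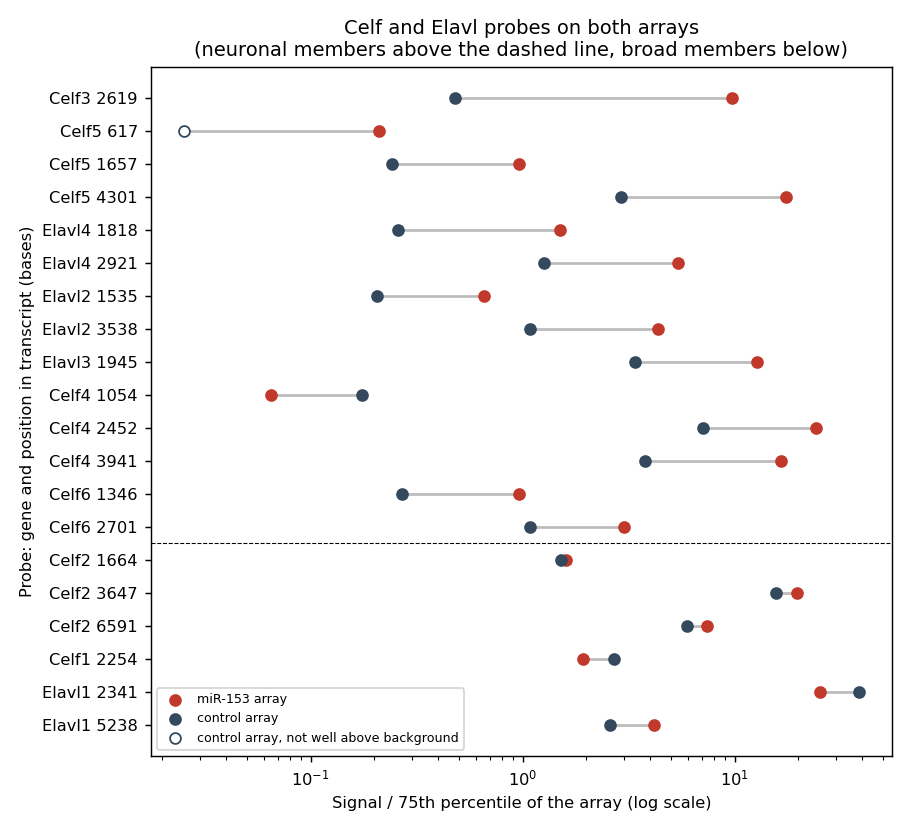
Signal of each Celf and Elavl probe on the miR-153 array (red) and on the control array (dark), as a multiple of the 75th percentile of its array on a log axis, with 1 row per probe named by gene and position in the transcript. The red point lies to the right in all neuronal rows except Celf4 1054, and close to the dark point in the broad rows; distances along the axis compare arrays within a row, not probes with each other.

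Whole-array figures set the precision of these values. The scanner software called 55.6% of the non-control spots of the miR-153 array and 52.5% of those of the control array well above background, and 0 saturated. The spread of the difference between repeat spots of a probe had a median SD of 0.072 over 250 probes, and different probes of a gene had an SD of 0.46 over 3442 genes. For a probe on a single spot, the error quoted below is the scanner software's own estimate for both spots combined, about 0.20 for bright probes, and it covers neither the culture nor the labelling. Levels are given as multiples of the 75th percentile of each array, and levels of different probes are not comparable.

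Celf3, a neuronal splicing regulator, had the largest difference of the members. Its probe lies at chr3:94295991-94296049 (mm9, plus strand) and was printed on 10 spots, of which 2 carried an outlier flag and were left out. Over the other 8 spots the level ran from 9.10 to 10.3 with a median of 9.82 on the miR-153 array, and from 0.431 to 0.529 with a median of 0.481 on the control array. The spots of the arrays did not overlap, and the lowest on the miR-153 array was 17.2 times the highest on the control array. The mean gave a 20.3-fold difference (log2 4.34 ± 0.15, SD over the 8 spots), which ranked at number 7 among the 20473 genes. These spots share 1 labelled RNA per array and measure only the array's own error. The RefSeq-matched genes of at least median level with the nearest differences were Tal1 (4.02), Asic4 (3.93) and Insm1 (3.74), a likeness over 2 arrays that says only that the differences are of similar size.
Celf3 probe at transcript position 2619, first 30 bases: gggtggggagggtaaaggataagaaggggg

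**Figure D2:**
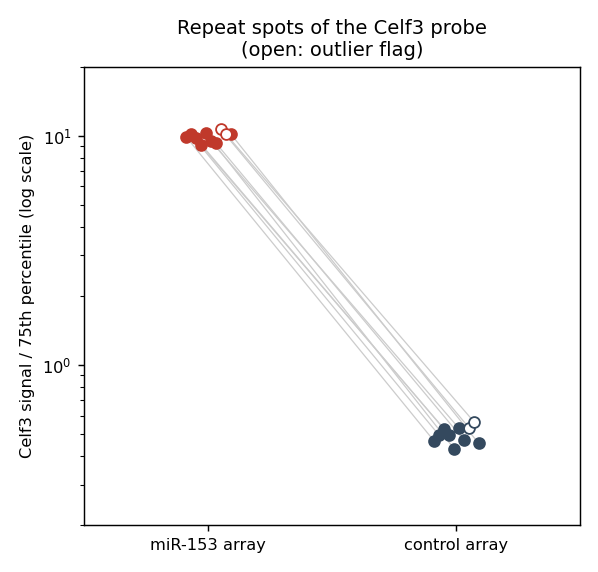
Level of the 10 repeat spots of the Celf3 probe on the miR-153 array (left) and on the control array (right), as a multiple of the 75th percentile on a log axis, with lines that join the same spot and open points for the 2 spots with an outlier flag. The spots used lie between 9.10 and 10.3 on the miR-153 array and between 0.431 and 0.529 on the control array.

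Celf5, a member of the same neuronal branch, was next among the members. Its probe at position 4301 read 17.5 on the miR-153 array and 2.91 on the control array, a 6.01-fold difference (2.59 ± 0.20, scanner error). The probe at position 1657 read 0.960 with miR-153 and 0.242 in the control, which is 3.96-fold (1.99 ± 0.22). At position 617 the probe read 0.211 with miR-153, while on the control array it did not stand well above background, which bounds the difference at 4.28-fold or more on the processed signal. This lower bound, like those given later, takes the lowest well-above-background level of the array where the probe is dim, or the probe's own level there if that is higher. It did not hold with normexp background correction, which adds an offset of 50 to every signal and put the probe at 0.84, short of the 2-fold rule. The 3 probes gave the same direction along the transcript, by unequal amounts.

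Celf6, expressed in brain and in some other tissues, was the least different of the neuronal members. It read 3.01 on the miR-153 array and 1.08 on the control array at position 2701, a 2.78-fold difference (1.48 ± 0.20). At position 1346 it read 0.963 with miR-153 and 0.270 in the control (1.83 ± 0.21). Both probes passed the 2-fold rule. The gene ranked at number 790.

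Celf4, a neuronal protein needed in mice for normal excitability and protection from seizures, was the only neuronal member whose probes disagreed in direction. The probe at position 2452 read 24.3 on the miR-153 array and 7.07 on the control array (3.43-fold, 1.78 ± 0.20). The probe at position 3941 read 16.5 with miR-153 and 3.76 in the control (4.39-fold, 2.13 ± 0.20). The remaining probe, for another accession that the RefSeq table used here does not list, read 0.0651 with miR-153 and 0.176 in the control, so that it was lower on the miR-153 array (-1.43 ± 0.28). It lies 199850 bases upstream of the other 2 on chromosome 18 of mm9, was close to the bottom of the range, and stood at -0.76 with normexp background correction, short of the 2-fold rule. The mean over the 3 probes was 0.83.

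The neuronal Elavl genes differed by similar amounts. Elavl4, the gene of HuD, read 5.38 on the miR-153 array and 1.27 on the control array at position 2921 (4.26-fold, 2.09 ± 0.20), and 1.50 with miR-153 against 0.259 in the control at position 1818 (5.80-fold, 2.54 ± 0.22). Elavl2, the gene of HuB, read 4.37 on the miR-153 array and 1.09 on the control array at position 3538 (4.02-fold, 2.01 ± 0.20), which is the probe with the seed match shown above. At position 1535 it read 0.655 with miR-153 and 0.205 in the control (1.68 ± 0.22).

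Elavl3, the gene of HuC, had a single probe, at chr9:21822471-21822530 (mm9, minus strand), which read 12.8 on the miR-153 array and 3.38 on the control array (3.78-fold, 1.92 ± 0.20). Probes of different members shared no run of letters longer than 10 bases. By their brightest probes the 3 genes lay between 1.92 and 2.09, a range of the size of the scanner error of a single probe, so that their order is not resolved. They ranked at numbers 242 (Elavl4), 292 (Elavl2) and 354 (Elavl3) among all genes. Of the 13 neuronal probes well above background on both arrays, 12 were higher and 1 lower, where 9.02% of the 27439 such probes on the array were higher and 11.5% lower.

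**Figure D3:**
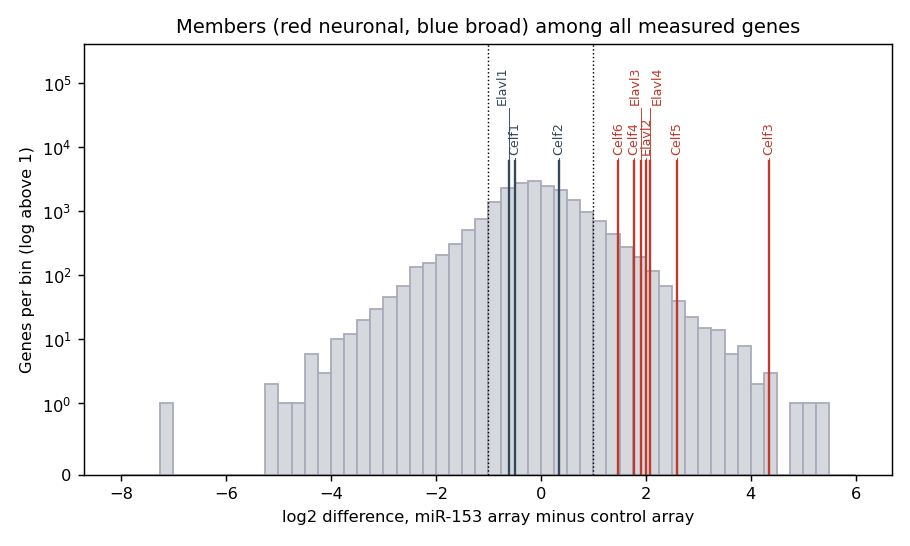
Number of genes in bins of the log2 difference, miR-153 array minus control array, for the 20473 measured genes (grey bars, log scale above 1), with the members as lines (red neuronal, blue broad) and the 2-fold limits dotted. The 7 neuronal members lie beyond the upper limit, from 1.48 to 4.34, and the 3 broad members lie within the limits.

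The broad members all stayed within 2-fold. Celf2, which is abundant in brain, heart and lymphocytes, read 19.8 on the miR-153 array and 15.6 on the control array at position 3647 (0.34 ± 0.20). At position 6591 it read 7.42 with miR-153 and 5.95 in the control (0.32), and at position 1664 the levels were 1.60 with miR-153 and 1.52 in the control (0.07), so that its 3 probes gave like values. Celf1, which promotes the decay of GU-rich mRNAs, read 1.92 with miR-153 and 2.71 in the control at position 2254 (-0.50 ± 0.20), also within 2-fold. Another 2 probes, annotated to Celf1 by description only and chosen after their values were seen, were also within 2-fold. One read 5.29 with miR-153 and 5.89 in the control (-0.16), and the other 7.03 with miR-153 and 5.91 in the control (0.25). Such a probe of Celf2 was not well above background on either array.

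Elavl1 gave a different answer at each of its probes, which are shown because they target the same transcript.
Elavl1 probe at transcript position 2341, first 30 bases: aaagttctcttcataactgccttgacgttt
Elavl1 probe at transcript position 5238, first 30 bases: ctaccagctgattcccttgttgtacactag
The first lies at chr8:4288411-4288470 and the other at chr8:4285514-4285573, both on the minus strand of mm9. They are 2897 bases apart on the transcript and equally far apart on the genome, so that no intron lies between them. At position 2341 the level was 25.2 on the miR-153 array and 38.5 on the control array, 1.53-fold lower on the miR-153 array (-0.61 ± 0.20). At position 5238 it was 4.15 on the miR-153 array and 2.60 on the control array, 1.60-fold higher on the miR-153 array (0.68 ± 0.20). Neither passed the 2-fold rule, and both signs held under each of the 7 alternative ways of scaling or correcting the signal. Of these, the authors' table and the version with flagged spots kept returned the same values. As background, Elavl1 mRNA is made with short and long 3′ UTRs through the use of different poly(A) sites, and the long form has been reported from neurons, where neuronal ELAVL proteins favour it.

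The 3′-most probe minus the 5′-most probe of Elavl1 came to 1.29. Over 2127 transcripts with 2 or more measured probes at least 500 bases apart, this gap had a median of 0.25, and 6.44% of transcripts had a gap as large or larger. Probes of opposite sign occurred in 31.5% of those transcripts, and among the 7 members with such a pair on 1 accession they occurred in Elavl1. In the other 6 the gap ran from -0.45 (Elavl4) to 0.60 (Celf5), but it depended on the background correction where a probe was dim. With normexp, Elavl4 stood at 0.11 and Celf6 at 0.01 in place of -0.36, so that both turned sign, Celf5 at 1.07, and Elavl2 at 0.78 in place of 0.33, while Elavl1 stood at 1.21. These arrays do not measure the length of a transcript, and which form a probe detects was not tested.

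**Figure D4:**
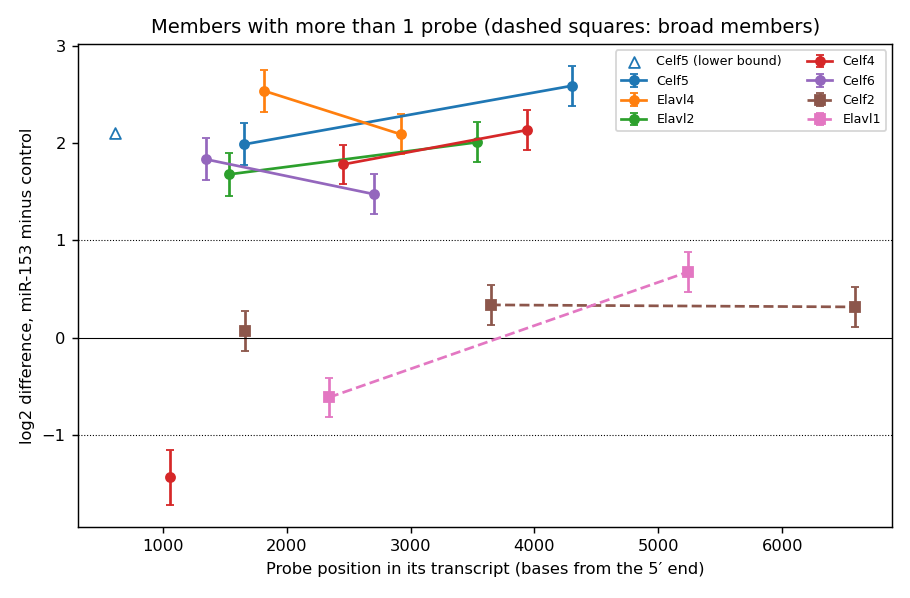
Log2 difference (miR-153 array minus control array, with the scanner software's error) of each probe against its position in the transcript, for members with more than 1 probe, where lines join probes of the same accession and an open triangle is a lower bound. The Elavl1 probes lie on opposite sides of 0, at -0.61 and 0.68, and the Celf4 probe at position 1054 lies at -1.43, apart from the other 2 probes of that gene.

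Markers of cell types and states also differed between the arrays, which hold bulk RNA, so that more neurons and more RNA per neuron cannot be told apart. Of 12 neuron markers, 12 were measured, 6 were higher and 3 lower, with a median of 0.94 and a summed level of 218 on the miR-153 array and 152 on the control array. Such sums weigh bright probes most, and here Gap43 alone gave 31.0 with miR-153 and 87.8 in the control. Dcx (2.97), Nsg2 (2.72), Tubb3 (2.52) and Ina (2.36) were among the higher, and Nefm (-1.74), Gap43 (-1.50) and Nefl (-1.32) were the lower ones. The 5 markers of dividing cells measured on both arrays were all lower (median -2.37), with a summed level of 13.6 on the miR-153 array and 71.6 on the control array, and Aurkb was at least 10.3-fold lower. Among oligodendrocyte markers, Cnp (2.88), Mag (2.56), Sox10 (1.54) and Mbp (1.45) were higher, and Mog (-0.04) was within 2-fold. The 8 progenitor markers were all measured, with 2 higher (Prom1 at 1.74 and Sox1 at 1.15), 0 lower and a median of 0.17. Those within 2-fold were Nes (-0.95), Vim (-0.72), Pax6 (-0.69), Msi1 (0.15), Fabp7 (0.19) and Sox2 (0.29). The other probe of Sox1 gave 0.40, and the mean of both, 0.77, fell short of the 2-fold rule. Their summed level, 654 with miR-153 and 705 in the control, ran against the median and came mostly from Fabp7 (416 with miR-153 and 365 in the control) and Vim (167 with miR-153 and 275 in the control). Astrocyte markers had 1 of 6 higher, S100b (1.44), with summed levels of 47.3 with miR-153 and 31.7 in the control. The part of these cell states in the members' differences was not tested.

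CELF3 is also known from endocrine cells, and other members from muscle and gonads, so that markers of those were looked at too. The secretory granule genes Chgb (2.61) and Chga (2.58), which neurons also express, were the 2 higher ones of 6 endocrine markers. The 4 markers measured on both arrays had a summed level of 59.4 with miR-153 and 10.2 in the control. That sum came mostly from Chgb (48.2 with miR-153 and 7.91 in the control) and Chga (10.6 with miR-153 and 1.76 in the control). Gcg passed background in the control alone and was at least 6.04-fold lower with miR-153, while Ins1 passed it on neither array. Of 6 striated muscle markers, Actc1 was measured on both arrays (0.84), and the other 5 were not well above background on either. None of the 5 germ cell markers was well above background on both arrays, and Zp3 was so on the control array only. Of the 4 pluripotency markers, 2 were measured on both arrays, of which Esrrb (-2.48) was lower and Nanog (-0.11) within 2-fold. The other probe of Nanog gave 0.76. Pou5f1 passed background on the miR-153 array alone, but read 0.0450 with miR-153 and 0.0552 in the control, so no direction is read from it. The part of these cells was not tested either.

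Other proteins that act on the same RNA elements did not share the differences of the neuronal members by the 2-fold rule. Of 15 genes of AU-rich RNA-binding proteins, 14 were measured, 0 were higher and 0 lower, with a median of -0.53. Ncl (-0.92), Ybx1 (-0.82) and Hnrnpd (-0.57), an mRNA decay factor known as AUF1, were among the lower values. Tia1 (0.55) was the highest by its brightest probe. Under other processing the values nearest to 0 were -0.34 (Ncl), -0.35 (Ybx1), -0.32 (Hnrnpd) and 0.19 (Tia1). The other probe of Ncl gave 0.24 and that of Tia1 -0.16, so that both genes changed sign with the probe. So did Tial1 (-0.80 and 0.80), Hnrnpdl (-0.78 and 0.19) and Hnrnpab (-0.72 and 0.19), and the median of the list takes their brightest probes, which were the negative ones. Of 12 partners and modifiers of ELAVL1, 4 were lower and the other 8 within 2-fold by their brightest probes (median -0.46). The lower ones were Cdk1 (-2.24) and Prkcd (-1.42), which encode kinases that phosphorylate HuR, Anp32b (-1.30), a nuclear ligand of HuR, and Tnpo1 (-1.02), an import receptor. Cdk1 is also a marker of dividing cells, and 3 of the 4 fell short of the rule under some other processing. The values nearest to 0 there were -0.60 (Prkcd), -0.78 (Tnpo1) and -0.98 (Anp32b). Among the other 8, a second probe of Mapk14 gave -1.16. Of 8 genes on the CELF side, Mbnl1 (-1.05, or -0.81 under spike-in scaling), the muscleblind antagonist of CELF1, was lower. The other 7 stayed within 2-fold by their brightest probes, and the median of the 8 was -0.11. The highest of the 3 Gsk3b probes gave 1.18.

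Messages reported elsewhere as bound by these proteins went both ways. Of 20 reported ELAVL1 targets, 18 were measured, with 1 higher and 7 lower, and their median was -0.36. Ccnd1 (-2.62), Ccnb1 (-2.51) and Ccna2 (-2.39), all cyclins, Slc2a1 (-2.54), a glucose transporter gene, and Vegfa (-2.14), a vessel growth factor, were among the lower, and the immediate early gene Fos (2.90) was the higher one. Ptgs2 passed background with miR-153 alone, where it was at least 2.35-fold higher. The cyclins overlap with the genes of dividing cells.

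Of 13 reported targets of the neuronal ELAVL proteins, 2 were higher and 3 lower, and the median of the list was 0.15. Mapt (1.55), which encodes the microtubule protein tau and is a reported target of both HuD and CELF proteins, read 30.2 on the miR-153 array and 10.3 on the control array, with its other probes up to 2.16. Camk2a (1.63) rested on a dim probe, and its second probe gave 0.21. Gap43, the best studied HuD target, was lower, at 31.0 on the miR-153 array and 87.8 on the control array (-1.50), as were Cdkn1a (-2.00), a cell cycle inhibitor, and Nrn1 (-1.40). Of 12 reported CELF targets, 10 were measured, of which Junb (1.72, a dim probe, as low as 0.92 under other processing) and Mapt were higher and Cebpb (-1.61) lower. The median of that list was -0.32. Cdkn1a, Mapt and Nf1 each stand on 2 of these lists.

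**Figure D5:**
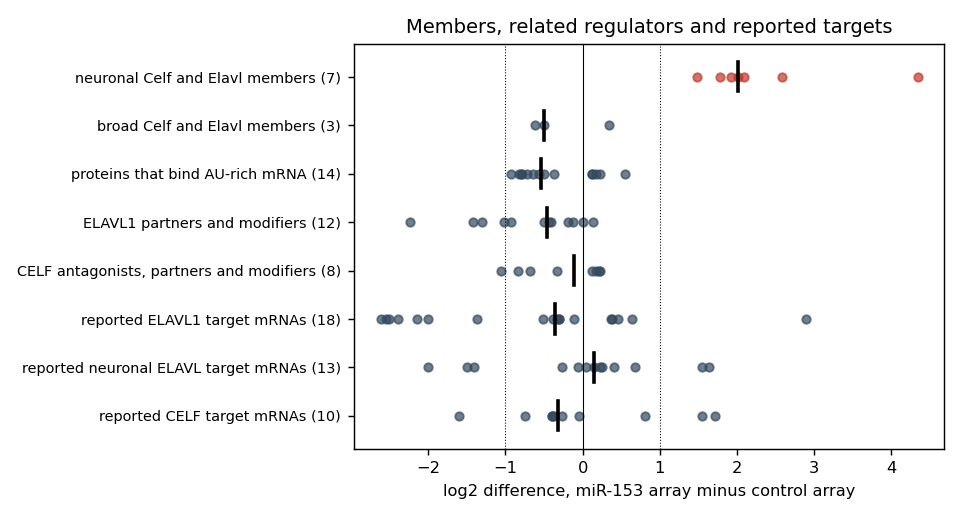
Log2 difference (miR-153 array minus control array) of each measured gene for the members and for the lists of related regulators and reported targets, with a black bar at each list's median and the number of genes in parentheses. The neuronal members lie from 1.48 to 4.34 with a median of 2.01, and the medians of the 6 other lists lie between -0.53 and 0.15.

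The start regions of the members were compared, since the neuronal members were higher together. RefSeq promoter windows, which run from 250 bases before to 50 after a start, were found for 9 of the 10 members (6 neuronal, 3 broad) in 32 windows, some of which overlap. The E-box CAGCTG, a form bound by neurogenic bHLH factors that reads the same on both strands, occurred in a window of 6 of 6 neuronal members and 0 of 3 broad members. By windows these were 11 of 25 for the neuronal members and 0 of 7 for the broad ones, against 16.3% of all 32851 windows. Overlapping windows can share an occurrence, as those of Celf3 and of Elavl4 did here, so window counts take such an occurrence more than once. In Elavl2, no CAGCTG lay wholly within the 250 bases before a start. Celf1, Elavl1 and Elavl3 had 1 window each, and a gene with more windows has more chances to hold CAGCTG. The neuronal and broad members were thus not compared on equal terms. At least 1 window held CAGCTG in 18.3% of all genes, and in 30.6% of genes with 2 or more windows. The looser CANNTG, which includes CAGCTG, occurred in 21 of 25 neuronal and 4 of 7 broad windows, against 72.3% of all. CCAAT, searched on both strands, was in 16 of 25 neuronal and 1 of 7 broad windows, against 37.4% of all. TATAAA, also on both strands, was in 3 of 25 neuronal and 1 of 7 broad windows, against 13.6%.

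TTCAGCACC and GGACAGCGC, the left and right parts of the element bound by the neuronal repressor REST, were in 0 of the 32 windows and in 0.371% and 0.405% of all. A match is a run of letters and not a site shown to be bound. The 250 bases before the start of Elavl3 and of Elavl1, which each have 1 window, are shown as an example of each class, with CAGCTG in capitals where it occurs. They lie at chr9:22052024-22052273 (Elavl3) and chr8:4325101-4325350 (Elavl1), both on the minus strand of GRCm38.p6.
Elavl3: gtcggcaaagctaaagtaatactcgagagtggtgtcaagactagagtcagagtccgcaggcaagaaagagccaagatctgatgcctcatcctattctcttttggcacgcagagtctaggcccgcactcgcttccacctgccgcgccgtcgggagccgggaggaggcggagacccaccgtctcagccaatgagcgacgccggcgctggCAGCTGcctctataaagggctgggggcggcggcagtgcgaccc
Elavl1: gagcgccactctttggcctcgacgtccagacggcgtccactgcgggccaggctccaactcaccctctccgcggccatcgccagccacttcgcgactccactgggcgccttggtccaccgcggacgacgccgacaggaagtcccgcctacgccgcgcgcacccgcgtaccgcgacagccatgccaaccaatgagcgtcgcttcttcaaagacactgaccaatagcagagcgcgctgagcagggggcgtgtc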

How the data were processed

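The deposited values are scanner intensities of 2 arrays with 1 colour (Cy3). The submitters' processing notes name Feature Extraction 10.7.3.1. The processed signal that the authors deposited is, per the file headers, a linear intensity corrected by that software for background and trends, with flags for each spot. The authors' series table holds the same intensity divided by 1 constant per array (485 for miR-153 and 381 for control, medians 0.0614 and 0.0662), so that it is linear, uncentred and uninverted. It has 0 columns of other samples.

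Here log2 of the processed signal was taken minus the 75th percentile of non-control spots (549 for miR-153, 435 for control). Spots with an outlier flag (229) were left out and repeat spots averaged. RefSeq accessions (GRCm38.p6 gene table) matched 26296 probes (47.2%), and the brightest probe stood for a gene. A probe well above background on a single array has a lower bound, set against the higher of its own signal and the lowest well-above-background level on the other array (-4.86 for miR-153 and -4.34 for control). The number of arrays limits the precision. No test was made. The steps were tested on simulated data.

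The members, their division into neuronal and broad, and the lists were chosen with earlier results of these data known. All members were named, with the 3 genes nearest to Celf3, up to 6 genes per list at least 2-fold apart, and up to 2 with such a bound. List genes named beyond these, such as those between, were chosen after their values were seen. Protein sequences were not used here. The value of 1 oligodendrocyte marker, and the sums over that list, are not reported here. Alternatives were normexp (limma 3.58.1 in R 4.3.3, offset 50), quantile, lowess (statsmodels 0.14.6), median and spike-in scaling, the authors' table, and other rules for flags and probes.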

Additional observations from a re-analysis of the deposited data

How the results depend on the processing

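All 7 neuronal members stayed above 0 in each of the 73 values that 11 alternatives gave, and 72 of these were at least 2-fold. The exception was Celf4 as the mean of its probes (0.83). Some of the alternatives are not separate checks. The authors' table, no filter on dim probes, and RefSeq-matched probes only each returned the reported value of every member. Keeping flagged spots changed Celf3 alone. No 2-fold difference of a member changed sign. The neuronal median (2.01) was 1.88 with normexp, 2.11 with median scaling, 2.25 with spike-in scaling, and 1.92 both as the mean of probes and with bright probes only. The broad median (-0.50) was -0.41 with normexp, -0.38 with quantile normalization, -0.32 with lowess, -0.40 with median scaling, -0.26 with spike-in scaling and 0.0332 as the mean of probes, where the opposed probes of Elavl1 are averaged. The gap between them (2.50) was 2.30 with normexp, 2.40 with quantile normalization, 2.31 with lowess, 1.88 as the mean of probes and 2.41 with bright probes only. With bright probes only, 3 neuronal members were measured (Celf4, Celf5 and Elavl3) and all 3 were higher. Spike-in scaling added 0.24 to every difference, so that all genes had a median of 0.13, and left 0 broad members past 2-fold. Over all genes, 1886 were higher and 2264 lower as reported, 1199 and 1532 with normexp, 2815 and 1544 with spike-in scaling, 523 and 703 with bright probes only, and 3607 and 4371 with no filter on dim probes, which tests more genes. No paired analysis was possible because each group has 1 array. Culture-to-culture spread was not measured.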
